A study of Mus musculus with 33 samples.

Results

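Aif1 encodes Iba1, the protein most often stained to find microglia, the resident macrophages of the brain. It was followed as 1 gene of the 54146 listed, through all 33 libraries of the study and all 10 of their groups. It was chosen by its measured RNA levels, which were low in the libraries of mice without Irf8, so the 3 comparisons of germline Irf8 knockouts with their controls are described here without a test. The other 4 comparisons were tested. Those at 9 months share libraries with that choice, so their p-values are not independent of it.

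Iba1 is a small calcium-binding protein of the EF-hand type. It binds and bundles filamentous actin, works together with L-plastin (Lcp1) and with Rac signalling, and takes part in membrane ruffling and phagocytosis. In the brain it is made by microglia and by the macrophages at the brain's borders, and it is widely used to count these cells and trace their shape. Irf8 is an interferon regulatory factor that myeloid cells need to develop and to keep their identity. Batf3 is a basic leucine zipper factor best known as a partner of Irf8 in dendritic cells.

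Each library was amplified cDNA from microglia that had been isolated without enzymes and sorted by flow cytometry, from C57BL/6 mice that the labels give as female. At 3 months, 4 WT and 4 IRF8KO libraries formed one experiment, and 3 WT and 3 Batf3KO (Batf3-/-) libraries another. At 9 months there were 3 libraries each of WT, IRF8KO, 5xFAD (labelled 5xFAD/WT) and 5xFAD/IRF8KO. The 5xFAD mouse is a transgenic model of Alzheimer's disease, in which the neuronal Thy1 promoter drives the transgenes and amyloid is deposited in the brain. The conditional experiment compared 3 IRF8flox libraries, called flox here, with 4 IRF8floxCx3cr1CreERT2 libraries, called Cre here. Both received tamoxifen on 5 consecutive days from postnatal day 12, and were sorted at 3 months. The design text describes a Rosa26LSL-EYFP reporter and a sort of YFP-positive microglia for the deleted mice. Cx3cr1 drives the recombinase in microglia and in other Cx3cr1-expressing macrophages. Which part of Irf8 each allele removes is not given in the sources used here. Replicates are separate libraries by their labels, which do not say that each came from its own animal, so the spread between them may be partly technical.

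Libraries held between 605376 and 18357762 counts in genes, and Aif1 had between 108 and 10304 of them. One library went against its genotype label. The library labelled Cre replicate 1 had 1123 CPM of Irf8 (CPM are read counts of a gene per 1e6 counts in genes of that library). This lay within the 951 to 1184 CPM of the flox libraries, while the other Cre libraries had 346 to 480 CPM. The difference of Aif1 between Cre and flox is given with and without this library. Other conditional results are given mostly without it. In the germline knockouts Irf8 transcript was lower than in WT, with an edgeR adjusted p of 0.0415 at 3 months and 0.00153 at 9 months, but 15.9 to 185 CPM were still counted in single libraries. At 3 months its mean was 134 CPM in IRF8KO against 276 CPM in WT, a difference of only -1.12 (log2). The highest knockout library there had 185 CPM and the lowest WT library 252.5 CPM. At 9 months the means were 75.4 CPM in IRF8KO and 550 CPM in WT. The sorted cells carried other transcripts too. Of 13 neutrophil genes, 13 reached 5 CPM in each of the 3 germline Irf8 knockout groups, where they made up between 6.502% and 16.6% of counts, against 0.861% to 5.38% in their WT group at 3 months and at most 0.000496% in WT and 5xFAD libraries at 9 months. By sex-linked transcripts at 10 CPM, 16 libraries carried Xist only, 13 carried Y-linked transcripts only, 3 carried both and 1 carried neither, although all are labelled female.

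The gene lies on chromosome 17 of mouse build GRCm38, from 35170991 to 35176068 on the minus strand, and no other annotated gene overlaps it. GENCODE release M21 gives it 7 transcripts, 4 of them protein coding, with 1532 exonic bases in all. Their start sites run from 35171858 to 35176068, and the counts, which are per gene, do not separate them. The 250 bases before the RefSeq start site at 35176052 (RefSeq, GRCm38.p6, chr17:35176053-35176302, minus strand) are shown because the study deletes an interferon regulatory factor, and these factors bind known DNA elements. Capitals mark the match to GAAANNGAAA, the repeated GAAA core of the interferon-stimulated response element.
Aif1 promoter: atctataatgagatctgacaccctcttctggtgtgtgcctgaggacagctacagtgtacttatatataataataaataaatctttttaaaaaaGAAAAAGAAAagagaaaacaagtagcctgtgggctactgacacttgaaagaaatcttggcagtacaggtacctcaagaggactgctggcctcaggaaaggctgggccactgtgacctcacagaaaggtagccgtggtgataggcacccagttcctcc
Searched on both strands, GAAANNGAAA matched once, on the strand of the gene, with its first base at -157 from the start site. The same letters occur in 978 of 32851 RefSeq promoter windows of the same kind (2.98%). GGAANNGAAA, the composite element of ETS and interferon regulatory factors, had 0 matches and occurs in 756 of the windows (2.30%). A match is a description of the letters only. The window covers the most distal of the annotated starts and lies just upstream of a protein-coding transcript that starts at 35176001. It does not adjoin the other protein-coding starts, the nearest of which is at 35173278.

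Aif1 was abundant in every group with intact Irf8 and low in all 3 germline Irf8 knockout groups. Levels are CPM, with 1 scaling over all 33 libraries, as mean ± SD. The highest mean was in WT at 3 months of the IRF8KO experiment (947 ± 441, n = 4), followed by 5xFAD at 9 months (838 ± 85.2, n = 3) and Cre at 3 months (767 ± 323, n = 4). A middle range held flox (337 ± 21.5, n = 3), WT at 9 months (314 ± 67.0, n = 3), Batf3KO (307 ± 4.74, n = 3) and the WT of the Batf3KO experiment (272 ± 32.8, n = 3). The lowest were IRF8KO at 3 months (38.9 ± 17.2, n = 4), 5xFAD/IRF8KO at 9 months (20.5 ± 1.11, n = 3) and IRF8KO at 9 months (17.96 ± 2.28, n = 3). The highest mean was 52.7 times the lowest. Of the 9 neighbouring pairs in this order, the libraries of 7 overlapped. The 2 pairs that did not overlap were Batf3KO with its own WT, whose nearest libraries were 303 and 300 CPM, and that WT with IRF8KO at 3 months. Without the scaling between libraries the upper order changed, with 5xFAD first (894 CPM), Cre next (794 CPM), WT at 3 months of the IRF8KO experiment after it (784 CPM) and WT at 9 months after that (447 CPM). The 2 WT groups aged 3 months came from different experiments and had different Aif1 levels, so each group is set only against the controls of its own experiment below.

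**Figure D1:**
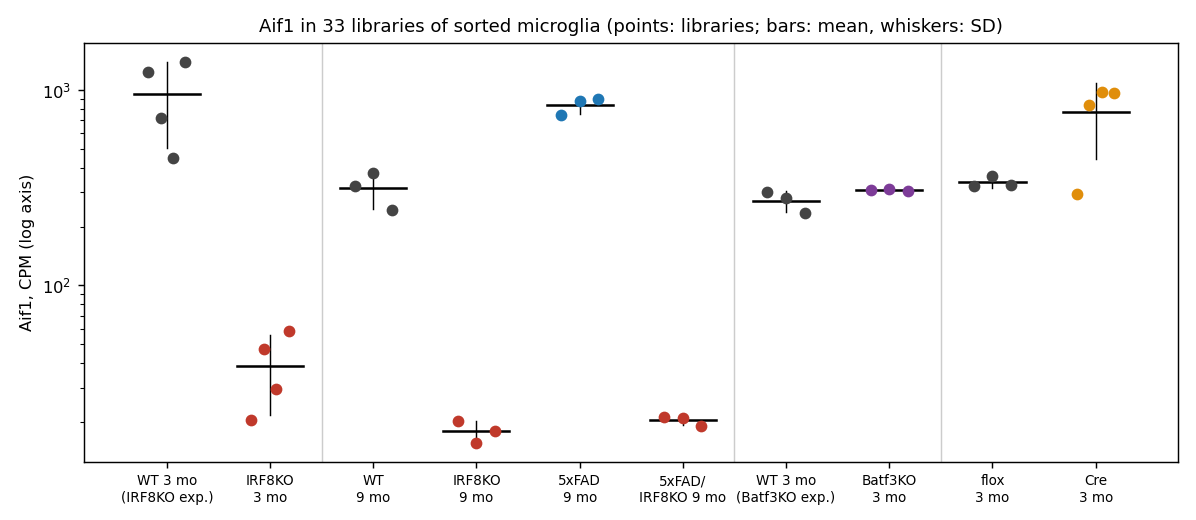
Aif1 in CPM on a log axis for each of the 33 libraries (points), with the group mean (bar) and SD (whisker), by group. The 10 libraries of the 3 germline Irf8 knockout groups lie between 15.7 and 58.5 CPM, and the other 23 lie between 235 and 1393 CPM.

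At 3 months the 4 WT libraries held 1232, 718, 446 and 1393 CPM of Aif1. The 4 IRF8KO libraries held 20.4, 47.2, 29.4 and 58.5 CPM. No knockout library came near the lowest WT library, although the WT libraries spread widely among themselves. The fitted difference was -4.68 on the log2 scale (SE 0.518), a 25.7-fold lower level without Irf8. Neutrophil genes took a larger share of these knockout libraries (7.72% to 16.6% against 0.861% to 5.38% in WT), and border macrophage genes, whose cells also make Iba1, took 0.122% to 0.175% against 0.00833% to 0.0321%. Monocyte genes took 0.694% to 1.58% against 0.0636% to 0.322%. The part of other cells in the result was not tested. In sorted bulk samples, fewer cells of a type and less RNA per cell cannot be told apart.

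At 9 months the WT libraries held 323, 375 and 243 CPM. The IRF8KO libraries held 20.3, 15.7 and 17.9 CPM. The groups were again far apart, here with little spread on either side. The difference was -4.28 (log2, SE 0.242), or 19.5-fold lower. The median of all 14604 genes tested was 0.25 in this comparison, and Aif1 lay at -4.53 relative to it. Of the 13 neutrophil genes 8, among them Camp, Ngp and Elane, had 0 counts in these WT libraries, whereas all 13 were present at 6.502% to 9.09% of counts in IRF8KO, and border macrophage genes were at 0.0259% to 0.0307% and 0.0887% to 0.104%. Genes of monocytes (0.793% to 1.65%), red blood cells (2.39% to 15.8%) and oligodendrocytes (0.730% to 1.12%) were also more abundant in IRF8KO than in WT, where they reached at most 0.000478%, 0.00529% and 0.0273%. The share of reads that fell in genes was 48.6% to 53.4% in IRF8KO and 74.7% to 77.3% in WT. The part of these differences in the result was not tested. On the 5xFAD background Aif1 stood at 740, 874 and 899 CPM with Irf8 and at 21.2, 21.0 and 19.2 CPM without it. That is the widest gap of the 3 germline comparisons, -5.46 (log2, SE 0.255) or 43.9-fold, with knockout levels as low as those without the transgene. Beside it stand the neutrophil genes at 8.27% to 14.9% of counts in 5xFAD/IRF8KO and at most 0.000207% in 5xFAD, and the share of reads in genes at 56.8% to 72.0% and 77.3% to 78.6%. Their part in the result was not tested.

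Many microglial transcripts were lower in these comparisons, and Aif1 was set against them with a list of 29 genes of homeostatic microglia, such as P2ry12, Tmem119, Cx3cr1 and Sall1, that does not hold Aif1. At 3 months 28 of the 29 had lower values without Irf8 and 17 were called lower, where 7.39% of all 13121 genes tested were called in either direction. Their median change was -1.86, against -0.02 over all genes tested and -4.68 for Aif1. Only Sall1, the transcription factor of microglial identity, had a lower value than Aif1 (-4.85, SE 1.16), and the 2 values lie within their errors. At 9 months all 29 had lower values, 27 were called lower where 28.3% of 14604 genes were called, and the median was -2.87. There 5 of the 29 had lower values than Aif1. They were Adgrg1, an adhesion receptor of microglia (-6.68), Slc2a5, a fructose transporter (-5.76), Sall1 (-5.69), Rtn4rl1, a Nogo receptor relative (-5.60), and P2ry12, the purinergic receptor that senses ADP (-5.05). With SEs of 1.47, 1.51 and 1.35, the intervals of 2 SE of Adgrg1, Slc2a5 and Sall1 include the value of Aif1, so this order is not resolved. P2ry13, its neighbour and relative, had the same value as Aif1 (-4.28) and Gpr34, a lysophospholipid receptor, came next (-3.51). P2ry12 and P2ry13 lie within Med12l, and Gpr34 overlaps Cask, so their counts are less certain than those of Aif1. The least affected of the list were Mef2c, a transcription factor (-1.05), and Fcrls, an Fc receptor-like microglial gene (-0.48, not called). Between 5xFAD/IRF8KO and 5xFAD, 28 of 29 were lower, 27 were called lower where 27.8% of all genes were called, and the median was -3.09. Slc2a5 (-5.71) and Sall1 had lower values than Aif1 there. Sall1 had 0 counts in all 3 5xFAD/IRF8KO libraries and 3799 in the 5xFAD libraries.

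Within each library, the log2 CPM of Aif1 minus the mean log2 CPM of the 29 homeostatic genes gives an index that does not depend on the scaling between libraries. It compares libraries, not the levels of different genes. At 3 months the index was -0.04, -0.54, -1.13 and 0.62 in WT and -3.93, -2.41, -3.67 and -2.90 in IRF8KO. The groups did not overlap, and the index differed by -2.95 (log2, SE 0.510), a further 7.74-fold, beyond a mean change of the list itself of -1.63. At 9 months the index was -2.47, -2.25 and -2.59 in WT and -3.40, -2.79 and -3.59 in IRF8KO. The groups again did not overlap, but the excess was much smaller, -0.83 (SE 0.260) or 1.77-fold, beyond a mean change of the list of -3.28. With the list's median in place of its mean the excess at 9 months was -1.30, and against 20 pan-myeloid genes it was -2.95, so its size depended on what it was set against. In 5xFAD/IRF8KO the index was -3.12, -3.27 and -3.12, against -1.61, -1.15 and -1.05 in 5xFAD, an excess of -1.90 (SE 0.178) or 3.73-fold. Against the list's median that excess was -2.33 and against the pan-myeloid list -4.00. Most cells of the myeloid lineage express the pan-myeloid genes. Neutrophil and monocyte genes were more abundant in each germline knockout group than in its control. The part of these other cells in the values against the pan-myeloid list was not tested.

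The index differed among control groups as well. Its mean was -0.27 ± 0.745 in WT at 3 months of the IRF8KO experiment (n = 4), -2.20 ± 0.0422 in flox (n = 3), -2.43 ± 0.172 in WT at 9 months (n = 3) and -3.27 ± 0.115 in the WT of the Batf3KO experiment (n = 3). The 3 germline knockout groups had means of -3.23, -3.26 and -3.17, close to each other and to the last of those WT groups. The larger excess at 3 months therefore stands beside a higher starting index in its WT libraries, and whether the excess differs between ages was not tested.

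**Figure D2:**
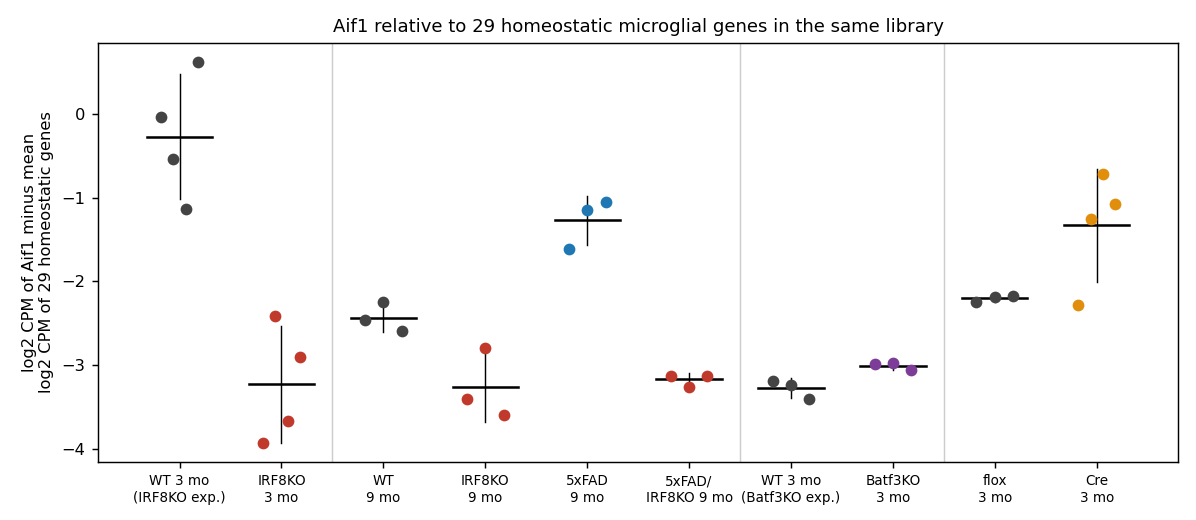
The index of Aif1 (log2 CPM of Aif1 minus the mean log2 CPM of 29 homeostatic genes in the same library) for each library (points), with group mean (bar) and SD (whisker). The knockout groups lie near -3.2, and the WT groups range from a mean of -0.27 to one of -3.27.

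The 20 pan-myeloid genes, which most cells of the myeloid lineage express, had smaller median changes. At 3 months their median was -0.50, with 3 called lower and 1 higher where 7.39% of all genes were called. At 9 months it was -0.94, with 11 called lower and 0 higher where 28.3% were called. In 5xFAD/IRF8KO against 5xFAD it was -1.26, with 12 called lower and 1 higher where 27.8% were called. In each of these 3 comparisons 1 of the 20 had a lower value than Aif1, and each time it was Ly86 (MD-1, partner of the Toll-like receptor relative Cd180), at -7.08, -7.26 and -9.28. At 3 months Ly86 ranged from 834 to 2125 CPM with Irf8 and from 2.69 to 17.6 CPM without it, and so was nearly absent from the knockout libraries. The next at 9 months were Unc93b1, a chaperone of endosomal Toll-like receptors (-2.51), and Rgs10, a regulator of G protein signalling (-2.14). At the other end were the signalling adaptors Tyrobp (0.43) and Fcer1g (0.50), neither of which passed the test at 9 months. Tyrobp, which microglia and neutrophils both express, had WT values of 1248, 1522 and 1049 CPM, against 2767, 1583 and 1398 CPM without Irf8, groups that overlapped and lay far closer than those of Aif1.

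The partners of Iba1 in actin remodelling were spread on both sides of 0. None of the 20 genes of this list, which holds L-plastin, Rac, Arp2/3 and WAVE genes, had a value as low as that of Aif1 in any of the 3 germline comparisons. Their medians were 0.64 at 3 months (0 called lower, 3 higher), 0.56 at 9 months (2 lower, 9 higher) and 0.28 in 5xFAD/IRF8KO against 5xFAD (1 lower, 6 higher). Over all genes 7.39%, 28.3% and 27.8% were called in these comparisons, and at 9 months 2868 of the 14604 were called higher and 1268 lower. The lowest at 9 months were Was, the Wiskott-Aldrich syndrome protein gene (-3.34, not called), and Wasf2, a WAVE subunit, which fell (-2.15, edgeR adjusted p = 2.85e-04). The highest were Capg, an actin-capping protein gene (2.46, edgeR adjusted p = 0.00154), and Rac2, the Rac of blood cells (2.76, edgeR adjusted p = 4.82e-05). Rac2 and Capg are also well expressed in neutrophils, whose genes were more abundant in the same libraries (6.502% to 9.09% of counts in IRF8KO at 9 months), and the part of other cells in these values was not tested.

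Over all genes tested, 66 of 13121 (0.503%) had lower values than Aif1 at 3 months, 710 of 14604 (4.86%) at 9 months and 544 of 14604 (3.73%) between 5xFAD/IRF8KO and 5xFAD. Among genes with at least 100 CPM in the control group, 4 of 1316, 48 of 1905 and 11 of 1621 had lower values.

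**Figure D3:**
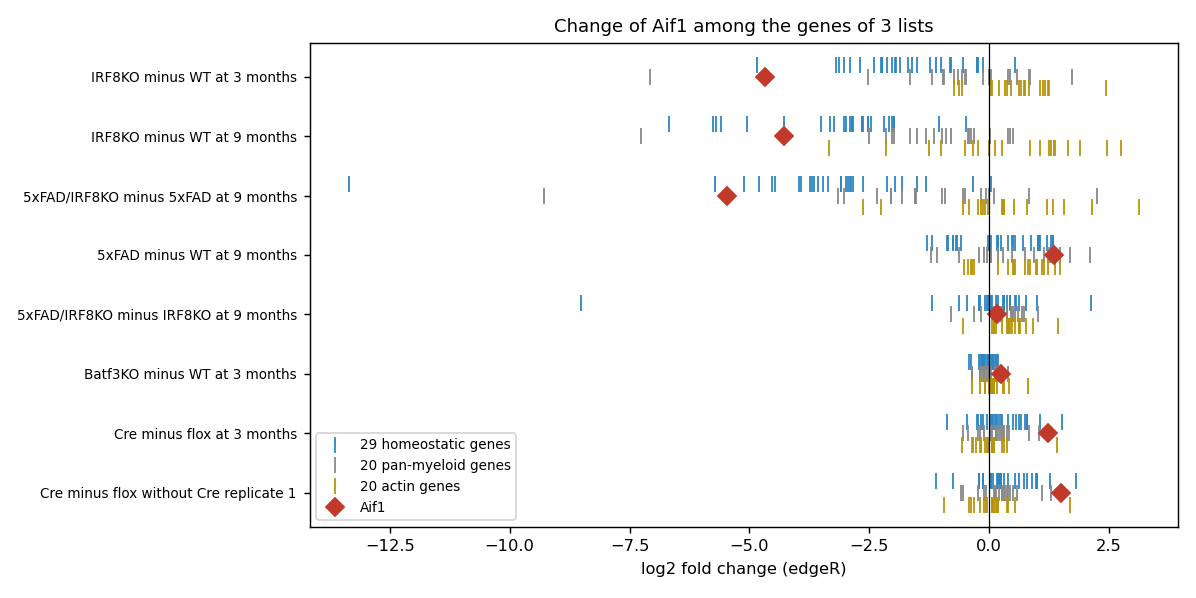
Fitted log2 fold changes of the 29 homeostatic, 20 pan-myeloid and 20 actin remodelling genes (ticks) and of Aif1 (diamond) in each comparison. Aif1 lies at the low end of all 3 lists in the germline comparisons and at or near the high end of the homeostatic list in 5xFAD against WT, Batf3KO and Cre. The tick at the far left in both comparisons that involve 5xFAD/IRF8KO is Sall1, whose 0 counts there make its fitted value arbitrary.

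In microglia with intact Irf8, Aif1 rose in 5xFAD mice. The 5xFAD libraries at 740, 874 and 899 CPM did not overlap the WT libraries at 323, 375 and 243 CPM. The difference was 1.34 (log2, SE 0.214, 2.53-fold, interval of 2 SE 0.91 to 1.77), with an edgeR adjusted p of 0.0150, in a comparison where 1.99% of 14604 genes were called. The homeostatic list showed no such shift as a whole. All 29 had lower values than Aif1, their median was 0.24 against 0.00 over all genes tested, and 1 was called lower and 3 higher. The upper part of the list did rise, with an upper quartile of 1.01 and a highest value of 1.337, nearly equal to the 1.341 of Aif1. The index of Aif1 was higher by 1.17 (SE 0.198, 2.24-fold) in 5xFAD and its groups did not overlap. Of the pan-myeloid list 5 were called higher and 0 lower, among them Tyrobp (2.10, edgeR adjusted p = 0.0123) and Fcer1g (1.68, edgeR adjusted p = 0.0106), while Ly86 did not pass the test (1.23, adjusted p = 0.531). The actin list had 4 called higher and 0 lower, with a median of 0.64.

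The call for Aif1 in 5xFAD depended on single libraries, while its size varied little. The edgeR adjusted p was over the threshold without WT replicate 1 (0.148), without WT replicate 2 (0.0579), without WT replicate 3 (0.124), without 5xFAD replicate 2 (0.0878) and without 5xFAD replicate 3 (0.105), with differences of 1.17 to 1.49. All 3 WT libraries carried Y-linked transcripts only, and 2 of the 3 5xFAD libraries Xist only. With the Y-linked level as a covariate the difference was 1.36 and its adjusted p 0.135.

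Without Irf8 no response of Aif1 to the 5xFAD transgene was detected. The 5xFAD/IRF8KO libraries at 21.2, 21.0 and 19.2 CPM overlapped the IRF8KO libraries at 20.3, 15.7 and 17.9 CPM. The difference was 0.17 (log2, SE 0.214, edgeR adjusted p = 0.828), with an interval of 2 SE from -0.26 to 0.60. The SE was 0.768 with the 2 groups fitted alone and 0.806 with limma voom, so the precision depended on the fit. Only 0.164% of 14604 genes were called in this comparison. Of the homeostatic list 1 was called higher, Rtn4rl1 (2.13, edgeR adjusted p = 0.0198). The difference between the responses with and without Irf8 was not tested, because it rests on the libraries for which the gene was chosen.

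Without Batf3, Aif1 was near its WT level. The WT libraries held 300, 280 and 235 CPM and the Batf3KO libraries 306, 312 and 303 CPM. The groups did not overlap, but by only a few CPM. The difference was 0.24 (log2, SE 0.0827, 1.18-fold, interval of 2 SE 0.07 to 0.40) and missed the threshold with an edgeR adjusted p of 0.140, where 3.83% of 13128 genes were called. With all 33 libraries in 1 model the difference was 0.18 with an SE of 0.363. The index of Aif1 was higher by 0.27 (SE 0.0717, 1.20-fold) in Batf3KO, and its groups did not overlap. All 29 homeostatic genes and 19 of the 20 pan-myeloid genes had lower values than Aif1. Batf3 itself was at 23.1 to 27.7 CPM in WT and 0.43 to 0.51 CPM in the knockouts (-5.64, edgeR adjusted p = 1.58e-08), and Irf8 did not pass the test (-0.08, adjusted p = 0.636). The homeostatic list had a median change of 0.00 with 2 of 29 called lower, Rtn4rl1 (-0.42, edgeR adjusted p = 0.00624) and P2ry13 (-0.37, edgeR adjusted p = 0.0204). Its 13 neutrophil genes were at most 0.000516% of counts in either group.

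Batf3 transcript was also low wherever Irf8 was deleted in the germline. It had 0 counts in all 6 knockout libraries at 9 months, and 0.00 to 2.06 CPM in the 4 at 3 months against 19.99 to 70.0 CPM in WT. The low Aif1 of these groups was seen with low Batf3. In the separate Batf3KO experiment Aif1 was between 303 and 312 CPM, against 235 to 300 CPM in its own WT. Whether Batf3 has a part in the low Aif1 of the Irf8 knockouts was not tested.

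In the conditional experiment, Aif1 was higher than in any flox library in 3 of the 4 Cre libraries. The flox label names no Cx3cr1CreERT2, and the YFP sort is described for the deleted mice only. Carriage of the recombinase and the sort therefore cannot be told apart from the deletion of Irf8 in this comparison. The flox libraries held 324, 362 and 326 CPM. The library labelled Cre replicate 1 held 292 CPM, below all of them, and the other Cre libraries 837, 972 and 968 CPM. Cre replicate 1 is also the one that kept its Irf8 transcript, so the groups overlapped through this library alone. Over all 4 Cre libraries the difference was 1.23 (log2, SE 0.342, 2.34-fold, interval of 2 SE 0.54 to 1.91), with an edgeR adjusted p of 0.249. The test called 0 of 15512 genes (0%), while 1407 had an unadjusted p under 0.05, DESeq2 called 164 and limma voom with quality weights 257. DESeq2 gave Aif1 an adjusted p of 0.0176 and limma voom 0.0302. Over these 4 Cre libraries the index of Aif1 was higher by 0.87 (SE 0.337), and its groups overlapped. Irf8 itself did not pass the edgeR test over all 4 (-0.84, adjusted p = 0.421).

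Without that library Aif1 rose to 926 ± 76.9 CPM (n = 3) against 337 ± 21.5 CPM in flox (n = 3), while Irf8 stood at 412 ± 67.2 CPM against 1063 ± 117 CPM. The difference was 1.505 (log2, SE 0.172, 2.84-fold), with an edgeR adjusted p of 4.41e-06, where 6.24% of 15264 genes were called. The index of Aif1 against the homeostatic list was higher by 1.19 (SE 0.159, 2.28-fold), and its groups did not overlap. Only C1qb, a subunit of the complement protein C1q, had a higher value than Aif1 among the 29 homeostatic genes (1.81, edgeR adjusted p = 1.05e-05), and the list's median was 0.21 with 2 called lower and 9 higher. Among those called higher were P2ry12 (0.63, edgeR adjusted p = 0.0390), P2ry13 (0.73, edgeR adjusted p = 0.0230) and Sall1 (0.90, edgeR adjusted p = 0.0152), and Fcrls was called lower (-1.11, edgeR adjusted p = 0.00274). All 20 pan-myeloid genes had lower values than Aif1 and 2 were called higher, Unc93b1 (1.29, edgeR adjusted p = 6.80e-05) and Ly86 (1.10, edgeR adjusted p = 2.72e-04).

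Without Cre replicate 1, the directions in the conditional and germline deletions were opposite for Aif1, Ly86 and Batf3, and likewise for C1qb, P2ry12, P2ry13, Sall1 and Unc93b1. Each of these other than Aif1, which was not tested there, was called lower in the 3 germline comparisons, except Unc93b1 at 3 months (-0.93, adjusted p = 0.106), and each was called higher here. Batf3 was at 1.89 to 4.35 CPM in flox and at 32.1, 63.8 and 43.8 CPM in Cre replicates 2 to 4 (3.78, edgeR adjusted p = 3.72e-08), with 1.31 CPM in Cre replicate 1. With all 4 Cre libraries 0 genes were called. Batf3 was then at 3.38 (edgeR adjusted p = 0.198) and C1qb at 1.52 (edgeR adjusted p = 0.227). The difference between conditional and germline effects was not tested. The conditional values also hold any effect of the recombinase and the sort, which cannot be told apart from the deletion. Neutrophil genes were at most 0.0110% of counts in any flox or Cre library, and border macrophage genes 0.0554% to 0.0676% in flox and 0.0163% to 0.0590% in Cre.

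**Figure D4:**
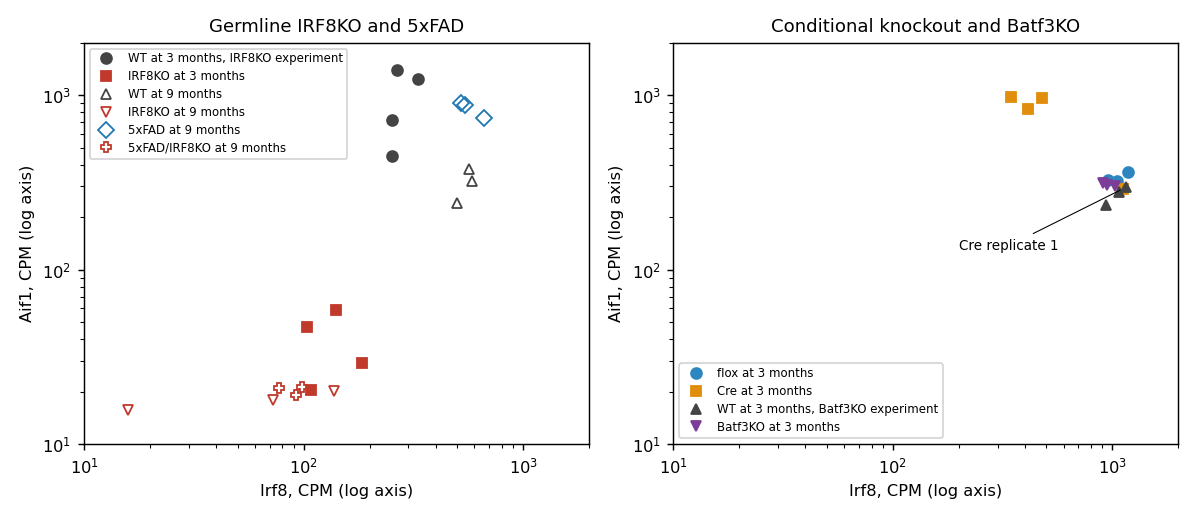
Aif1 against Irf8, both in CPM on log axes, 1 point for each library, with the germline and 5xFAD groups on the left and the conditional and Batf3KO experiments on the right. On the left all 10 Irf8 knockout libraries lie below the others in both genes. In Irf8 the gap is small at 3 months, with 104 to 185 CPM in IRF8KO against 252.5 to 332 CPM in WT. On the right Cre replicates 2 to 4 have less Irf8 and more Aif1 than the flox libraries. Cre replicate 1 lies within the flox libraries in Irf8 and just below them in Aif1.

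The genes whose group means followed those of Aif1 most closely were sought among 14060 genes with at least 5 CPM in their highest group. Likeness was the root mean square difference (RMSD) of the 10 group means of log2(CPM + 1), each gene centred on its own mean, where 0 is the same profile. The median gene was 2.18 away and the profile of Aif1 itself varied by 2.03. The closest were Ccl4 (0.497), a chemokine, Fam167b (0.584), C1qb (0.705), Susd3 (0.725), Fcgr1 (0.736), the high-affinity Fc receptor for IgG, and Cst3 (0.739), the cystatin C gene. Of these 6, 4 were also among the 6 nearest over the 33 single libraries. Ccl4, the closest by group means, ranked only 22 there, and Fcgr1 ranked 12. C1qb and Cst3 belong to the homeostatic list.

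These 6 genes were chosen for their likeness over these same groups, so their values are given as a description with no test. At 9 months Ccl4 was at 164, 198 and 336 CPM in 5xFAD and 55.6, 29.3 and 27.0 CPM in WT, groups that did not overlap, with a difference of 2.54 (log2, SE 1.04). Cst3 differed there by 1.30 (SE 0.279) and C1qb by 1.06 (SE 0.348). In the conditional deletion without Cre replicate 1 the closest value to the 1.505 of Aif1 was that of C1qb (1.81, SE 0.222). C1qb was at 28143, 23587 and 34712 CPM in those Cre libraries and 8098 to 9016 CPM in flox. The others lay at 0.61 for Susd3 and Fcgr1, 0.48 for Fam167b, 0.04 for Cst3 and -0.50 for Ccl4, so the likeness over 10 groups did not extend to this comparison for most of them.

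**Figure D5:**
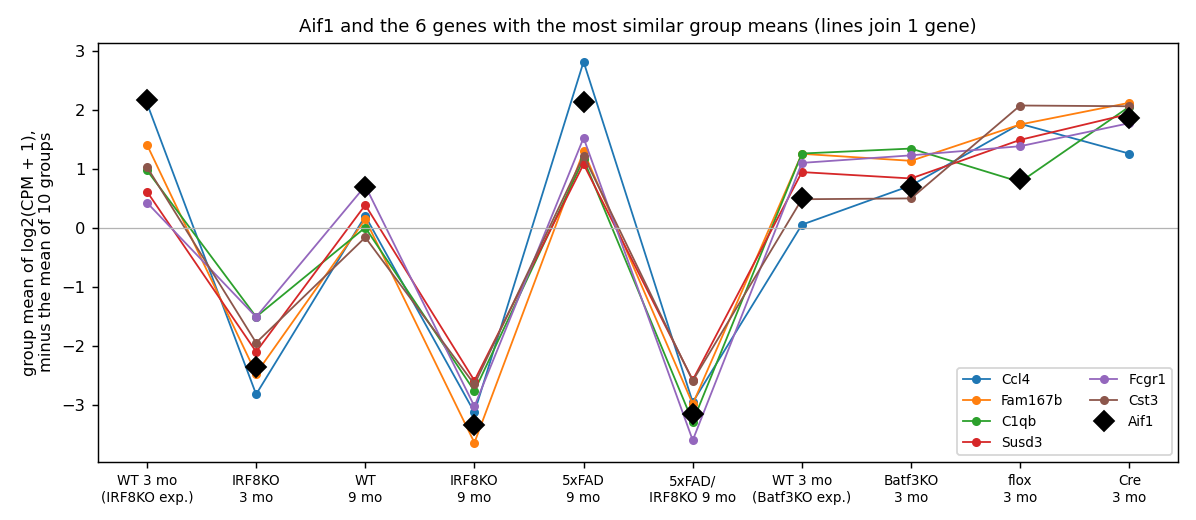
Group means of log2(CPM + 1), each gene centred on its mean over the 10 groups, for Aif1 (black diamonds) and the 6 genes with the most similar profile (lines). All are low in the 3 germline Irf8 knockout groups, and from flox to Cre the step of C1qb is the one closest to that of Aif1.

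On chromosome 17, 0, 1 and 0 of the 8 tested neighbours of Aif1 were called lower in the 3 germline comparisons. Over all genes 425 of 13121, 1268 of 14604 and 1419 of 14604 were called lower, so these few calls do not set the neighbours apart. Of the 5 protein-coding genes on each side, from Gpank1 to Nfkbil1, 8 had enough counts to be tested. Some of these had few counts, such as D17H6S53E, with 20 to 118 for a whole group. D17H6S53E was at -1.96, -1.99 and -3.48 (SE 1.10, 1.555 and 1.61) in the 3 germline comparisons and was not called. In IRF8KO against WT at 3 months 0 of the 8 were called, where 7.39% of all genes were, and their median was 0.24. At 9 months 6 of the 8 had lower values and the median was -1.34, with 2 called where 28.3% of all genes were. These were Bag6, a chaperone gene, which was lower (-2.20, edgeR adjusted p = 0.0445), and Ltb, the lymphotoxin beta gene, which was higher (2.59, edgeR adjusted p = 0.0218). In 5xFAD/IRF8KO against 5xFAD 6 of the 8 had lower values with a median of -0.67, and Ltb was called higher (3.05, edgeR adjusted p = 0.00954), where 27.8% of all genes were called. Lst1, a leukocyte gene 9027 bases away, had the most counts of the neighbours. Its WT libraries held 53.3, 67.1 and 64.3 CPM at 9 months and its IRF8KO libraries 123, 143 and 53.7 CPM, which overlap. Lst1 passed the test in none of the 3 germline comparisons, with values of -1.13 at 3 months, 0.64 at 9 months and -0.39 in 5xFAD/IRF8KO against 5xFAD. In the conditional deletion without Cre replicate 1, Lst1 rose with Aif1 (1.01, edgeR adjusted p = 5.65e-04). In 5xFAD against WT its value was 1.13 with an adjusted p of 0.153.

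The paralog of Aif1, Aif1l, which lies on chromosome 2, was at or near 0 in most groups. It had 0 counts in the 3 WT libraries at 9 months and 92 in the 3 IRF8KO libraries, 3.85 ± 3.33 CPM, with an edgeR adjusted p of 0.0625. In the Batf3KO and conditional experiments its counts were too low to be tested, at 2 to 12 for a whole group.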

How the data were processed

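Total RNA of sorted microglia was amplified with SMART-Seq v4 and made into Nextera XT libraries, per the labels' protocols. Per the file headers and values, the authors deposited 1 table of read counts per gene and sample, in the layout that STAR writes. The submitters' processing notes name STAR 2.5.2b, Picard 2.17.11, bcl2fastq, Subread, featureCounts and build mm10, without their roles. The labels and files name no annotation release. The unstranded counts were used, since the strand-specific columns split evenly (49.5% to 50.1%) and the kit does not mark strand. The 4 summary lines, which name no gene, were left out, and 47.3% to 78.6% of reads fell in genes. Of 54146 gene identifiers, 54079 matched GENCODE M21 names.

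Comparisons used edgeR 4.0.16 (R 4.3.3) quasi-likelihood tests with TMM scaling, the filterByExpr filter and Benjamini-Hochberg adjustment over all genes tested, with a threshold of 0.05. The 12 libraries aged 9 months were fitted together, and the other experiments each alone. The index used a prior count of 1. DESeq2 1.42.0 and limma 3.58.1 served as alternatives. The main edgeR fit was tested on simulated data for some of the comparisons. Named genes were Irf8, Batf3, Aif1l, the 6 most similar profiles, 5 neighbours on each side, and from each list those below Aif1, the 2 next and the 2 highest at 9 months. Members and lists were chosen with earlier results of these data known. The 39 within-group pairs of libraries differed by at least 2.31 chi-square per degree of freedom, so none was counted as a duplicate. Aif1 rested on at least 108 counts in each library.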

Additional observations from a re-analysis of the deposited data

How the results depend on the processing

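The germline differences of Aif1 kept their direction under all alternatives tried (-4.93 to -4.44 at 3 months, -4.53 to -4.12 at 9 months, -5.53 to -5.35 within 5xFAD). The test of 5xFAD against WT was lost with the Y-linked level as a covariate (1.36, adjusted p = 0.135) and ranged from 1.17 to 1.49 when 1 library was left out. Cre against flox passed the test with DESeq2 (1.22), without the filter on low counts (1.23, adjusted p = 8.57e-07), with limma voom (1.25) and without Cre replicate 1, and ranged from 1.08 to 1.505 when 1 library was left out. The index moved by more than the replicate spread with the list's median (-1.30 in IRF8KO at 9 months, -2.33 in 5xFAD/IRF8KO against 5xFAD, 0.52 in Batf3KO) and with the pan-myeloid list (-4.10 in IRF8KO at 3 months, -2.95 at 9 months, -4.00 in 5xFAD/IRF8KO against 5xFAD, 0.88 in 5xFAD against WT). Without TMM scaling Aif1 stood at 447 CPM in WT at 9 months, 313 CPM in Batf3KO and 18.6 CPM in 5xFAD/IRF8KO. The cause of these shifts was not tested.

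Counts of genes called moved more than Aif1 did. In IRF8KO against WT at 3 months 970 became 2049 with DESeq2, 1655 without the filter, 1680 with voom and 3300 with all 33 libraries in 1 model, and 305 to 1128 when 1 library was left out. At 9 months 4136 became 6836 with all 33 libraries and 2266 to 4126 when 1 was left out, and within 5xFAD 4054 became 6783 with all 33, 1362 with the Y-linked covariate and 2325 to 4055 when 1 was left out. In 5xFAD against WT 290 became 900 with DESeq2, 163 without the filter, 806 with all 33, 3821 with voom, 4546 with the 2 groups alone, 22 with the covariate and 2 to 102 when 1 was left out. In 5xFAD/IRF8KO against IRF8KO 24 became 714 with DESeq2, 320 without the filter, 1452 with all 33, 0 with voom, the 2 groups alone or the covariate, and 38 to 140 when 1 was left out. In Batf3KO 503 became 842 with DESeq2, 998 without the filter, 984 with voom, 10 with all 33 and 219 to 596 when 1 was left out. In Cre against flox 0 became 618 without the filter, 3 with all 33 and at most 952 when 1 was left out.

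The deviations of same-numbered libraries had correlations of -0.17 to 0.16, and those of different-numbered libraries -0.20 to 0.16. In IRF8KO and WT at 3 months replicates 2, 3 and 4 were at 0.156, 0.151 and 0.106 with their own number. Replicate 1 was at -0.06, and different numbers were at -0.17 to 0.14. With so few pairs this cannot decide whether the numbers pair libraries, and the main fits used no pairing. With the replicate number as a block Aif1 differed by -4.63, -4.27 and -5.46 in the germline comparisons, 1.35 in 5xFAD (adjusted p = 0.0340), 0.17 in 5xFAD/IRF8KO against IRF8KO, 0.24 in Batf3KO and 0.91 in Cre (adjusted p = 0.609), and no call for Aif1 changed. Under that block the genes called numbered 105 in 5xFAD, 0 in 5xFAD/IRF8KO against IRF8KO and 216 in Batf3KO.

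Depth limits the 9-month WT group most, where 1 library had 605376 counts in genes and 234 of Aif1, and the IRF8KO libraries, with 108 to 158 counts of Aif1.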
